A study of Bombyx mori with 9 samples.

Results

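CPR genes encode cuticular proteins with the Rebers-Riddiford (RR) consensus, and all 135 of them in the silk gland count table of 16674 genes are described here. They were chosen by name alone, as every identifier that starts with CPR and a number. No measured value entered that rule, though earlier results of these data were known. By the numbering of the silkworm family, numbers up to 56 were taken as RR-1 (52 genes in the table), CPR57 to CPR145 as RR-2 (80 genes) and CPR146 to CPR148 as RR-3 (3 genes).

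RNA-seq was done on dissected silk glands of Bombyx mori larvae, 1 larva per library, all sampled on day 3 of the 5th instar. The strains were LAT51, kept at the cooler site CAR (LAT51-1, LAT51-2 and LAT51-4), and MO204 and DMMMSU119, kept at the warmer site TCMO (MO204-1, MO204-3 and MO204-4, and DMMMSU119-0, DMMMSU119-2 and DMMMSU119-4). LAT51 was the only strain analysed from CAR, so in any comparison with it site and strain cannot be told apart. The labels give no other treatment and no genetic modification for any of the larvae.

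The RR consensus is a chitin-binding region, and the family supplies much of the protein of insect cuticle. RR-1 proteins are known mainly from soft, flexible cuticle and RR-2 proteins mainly from hard cuticle. The silk gland is an ectodermal organ whose secretory cells are dedicated to silk proteins, while its anterior duct is lined with a thin cuticle, and tracheae that reach the gland are cuticle-lined as well.

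Sequencing depth ran from 4527847 counted reads in LAT51-4 to 11641130 in LAT51-2. Expression is given as CPM, the usual counts scaled to library size, here adjusted by the TMM factor of edgeR (0.4215 to 0.591 for DMMMSU119 libraries, 1.263 to 1.532 for LAT51 and MO204). CPM is not corrected for transcript length, so levels are compared between libraries and not between genes. The summed CPM of 6 silk gland genes (fibroin heavy chain FIBH, fibroin light chain Fib-l, P25, Ser2, Ser3 and LOC101740082, listed as Ser1) was 92170 to 147600 in LAT51 and MO204 and 415100 to 854400 in DMMMSU119, so the labelled tissue was present in every library. DMMMSU119-0 and MO204-3 also held the most muscle transcripts, as described further on. Whole glands were sampled, so a lower level cannot be split into fewer cells of a type and less RNA per cell.

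Most CPR genes were near the limit of detection in the silk gland. No read was counted on 52 of the 135 members in any of the 9 libraries, which is 38.5% of them against 15.3% of all genes. A further 45 members had 1 to 9 reads in total, 38 had 10 or more, and 17 were detected in all 9 libraries. Between 30 and 47 members had a read in a given library. A member at 0 may have been present below the limit of 3 counts, which was 0.194 CPM in the deepest scaled library and 0.841 CPM in the shallowest.

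Only 20 members (14.8%, against 45.6% of all genes) passed edgeR's filter on low counts and were tested. They were 12 of the 52 RR-1 genes (23.1%), 7 of the 80 RR-2 genes (8.75%) and 1 of the 3 RR-3 genes. The RR-1 genes were CPR2, CPR3, CPR4, CPR5, CPR28, CPR34, CPR38, CPR41, CPR42, CPR43, CPR46 and CPR51. The RR-2 genes included CPR90, CPR100, CPR102, CPR104, CPR122 and CPR127, and the RR-3 gene was CPR148. The filter asks for a minimum level in as many libraries as 1 strain has, so a gene that reached it through a single strain had to differ, and counts over the 20 are descriptions. CPR104 reached that level in the MO204 libraries alone, and CPR100 and CPR102 in the MO204 libraries and DMMMSU119-4. CPR127 reached it in the MO204 libraries and LAT51-2, and CPR28 in DMMMSU119-0, DMMMSU119-2 and MO204-3. CPR51 reached it in the LAT51 libraries, MO204-1 and MO204-3. The differences of these genes between strains are not independent of the filter.

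**Figure D1:**
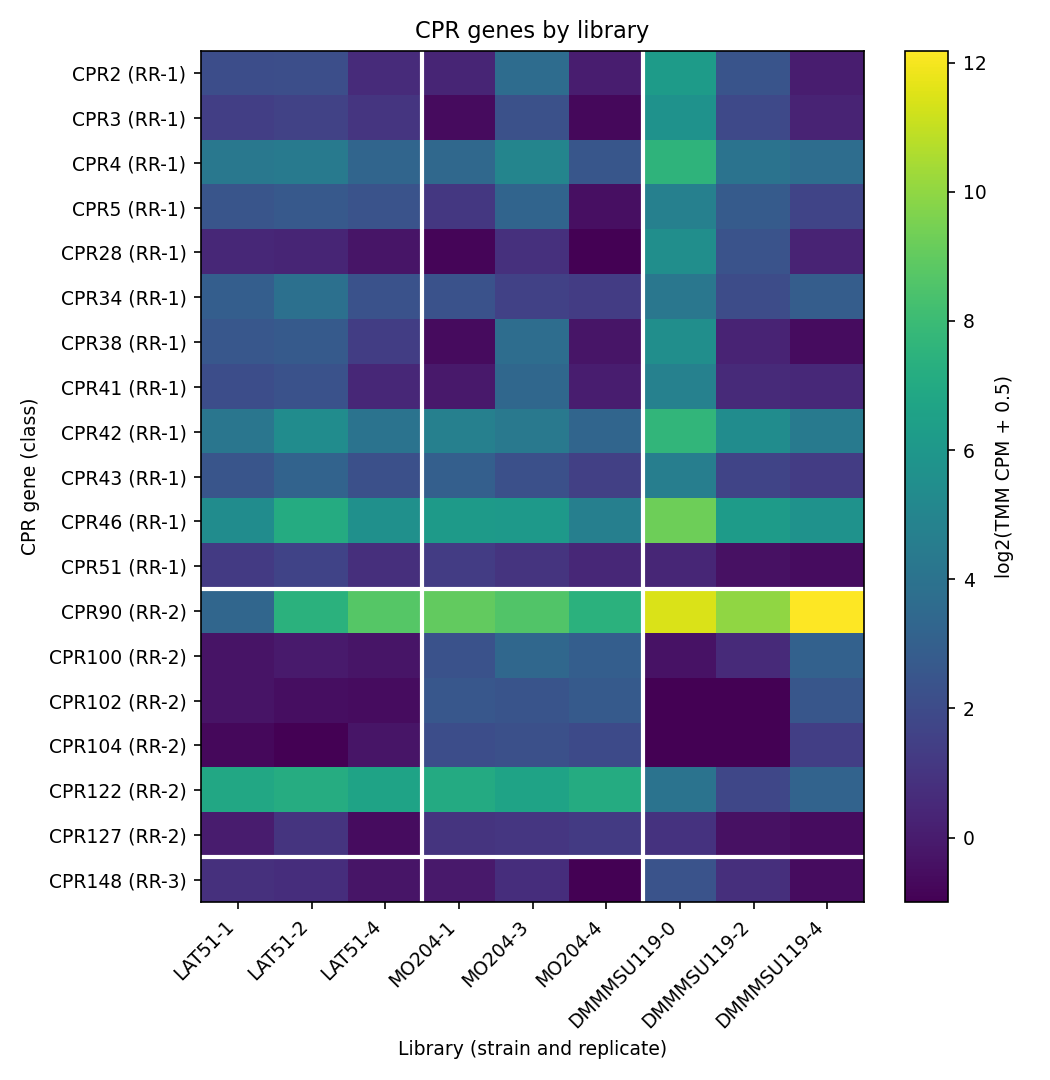
Expression of 19 of the 20 CPR genes tested (rows, grouped by RR class) in the 9 libraries (columns, grouped by strain), as log2(TMM CPM + 0.5) on the colour scale. CPR90 is the brightest gene in DMMMSU119, the RR-1 genes are brightest in DMMMSU119-0, and CPR122 is dimmer in DMMMSU119 than in the other strains.

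The whole family took a small share of the reads. CPR genes made up 0.0376% of the counts in LAT51-1 (95% Wilson interval 0.0362% to 0.0391%), the lowest of the 9, and 0.276% in DMMMSU119-4 (0.272% to 0.279%), the highest. These intervals cover counting error only, since the counts do not separate PCR duplicates. The share was 0.0512% to 0.124% in MO204, and DMMMSU119-2 at 0.0502% lay below all MO204 libraries, so the share did not separate the strains.

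CPR90, an RR-2 gene, was the member with the most reads, with 55395 of them over the 9 libraries. Its share of all CPR reads ran from 3.90% in LAT51-1 to 96.6% in DMMMSU119-4. CPR90 was at 9.58, 169 and 412 CPM in LAT51-1, LAT51-2 and LAT51-4, at 512, 390 and 168 CPM in MO204-1, MO204-3 and MO204-4, and at 2770, 1013 and 4646 CPM in DMMMSU119-0, DMMMSU119-2 and DMMMSU119-4. All DMMMSU119 libraries were above all others, LAT51 and MO204 overlapped, and within LAT51 the libraries were far apart.

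The mean of CPR90 was 197 ± 203 CPM (SD, n = 3) in LAT51, 357 ± 174 in MO204 and 2810 ± 1817 in DMMMSU119. It was 14.3-fold lower in LAT51 than in DMMMSU119 (log2FC -3.84, SE 1.11, adjusted p = 0.0313 by edgeR's quasi-likelihood test). It was 7.87-fold lower in MO204 than in DMMMSU119 (log2FC -2.98, SE 1.07, edgeR adjusted p = 0.0728), a call that held in 7 of 18 alternative analyses (log2FC -3.36 to -1.60) and was lost without any 1 MO204 library, LAT51-2 or DMMMSU119-4. That call was also lost with library size alone (log2FC -1.63), without a filter, with a filter of 10 counts in total, with limma and with a replicate block. Between LAT51 and MO204 the log2FC of CPR90 was -0.86 (SE 0.998, edgeR adjusted p = 0.864). The LAT51 call held in 16 of 18 alternatives and, of the libraries left out in turn, only LAT51-2 ended it (log2FC -3.71).

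CPR122, an RR-2 gene listed with the synonym Wcp8 (wing cuticle protein), had the opposite order. It was at 118, 140 and 101 CPM in the LAT51 libraries and at 133, 99.0 and 136 CPM in the MO204 libraries. It was at 15.7, 2.96 and 8.66 CPM in DMMMSU119-0, DMMMSU119-2 and DMMMSU119-4. The LAT51 and MO204 levels lay within a narrow band, and every DMMMSU119 library was below it.

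CPR122 averaged 120 ± 19.7 CPM in LAT51, 123 ± 20.6 in MO204 and 9.10 ± 6.38 in DMMMSU119 (SD, n = 3 each). It was 13.2-fold higher in LAT51 than in DMMMSU119 (log2FC 3.72, SE 0.522, edgeR adjusted p = 0.00242) and 13.5-fold higher in MO204 than in DMMMSU119 (log2FC 3.76, SE 0.523, edgeR adjusted p = 0.00327). It was called in both contrasts in all 18 alternative analyses, with log2FC between 3.32 and 5.07. Between LAT51 and MO204 its log2FC was -0.03 (SE 0.461, edgeR adjusted p = 0.997). The gene table used for annotation holds CPR122 as a gene of type "other" with no protein, whereas the other 134 members are listed as protein coding.

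**Figure D2:**
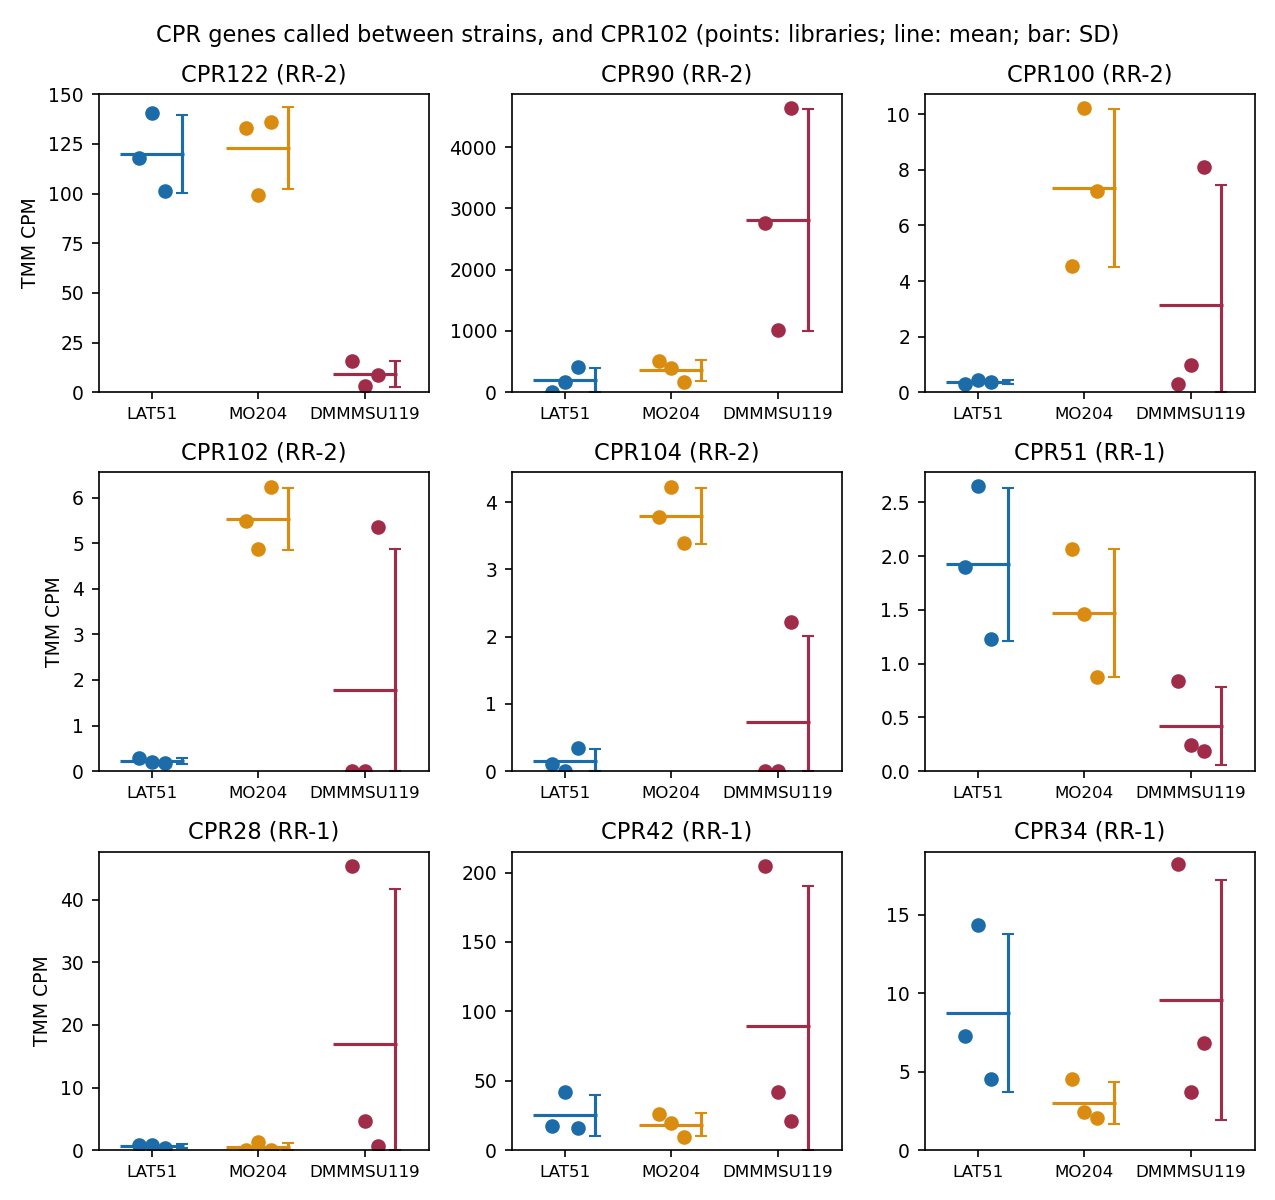
TMM CPM (linear axes from 0) of the 8 CPR genes called between strains and of CPR102, with 1 point per library, the mean of each strain as a line and its SD as a bar that stops at 0. CPR122 is lower and CPR90 higher in all DMMMSU119 libraries, CPR100, CPR102 and CPR104 are near 0 in LAT51, and CPR28 and CPR42 in DMMMSU119 are led by 1 library.

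CPR100, CPR102 and CPR104, RR-2 genes that lie close together in the genome, were nearly silent in LAT51. CPR104 is listed with the synonym Wcp1a, another wing cuticle protein, and CPR102 also carries the name BmorCPR101. CPR100 was at 0.300, 0.452 and 0.350 CPM in LAT51, at 4.56, 10.2 and 7.22 CPM in MO204 and at 0.280, 0.985 and 8.11 CPM in DMMMSU119-0, DMMMSU119-2 and DMMMSU119-4. CPR102 was at 0.300, 0.194 and 0.175 CPM in LAT51, at 5.48, 4.88 and 6.24 CPM in MO204 and at 0, 0 and 5.35 CPM in DMMMSU119. CPR104 was at 0.0998, 0 and 0.350 CPM in LAT51, at 3.77, 4.23 and 3.39 CPM in MO204 and at 0, 0 and 2.21 CPM in DMMMSU119. For all 3 genes the MO204 libraries were above every LAT51 library, and DMMMSU119 was split, with DMMMSU119-4 near the MO204 level and the other libraries near the LAT51 level.

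In LAT51 vs. MO204, CPR100 was 18.7-fold lower in LAT51 (log2FC -4.23, SE 0.981, edgeR adjusted p = 0.0681). CPR104 was also called, with 3 reads in the LAT51 libraries against 110 in the MO204 libraries, a depth-scaled ratio of 39.0 in favour of MO204 (95% counting interval 13.0 to 192, edgeR adjusted p = 0.0967). The interval covers counting error only, not the spread between larvae. CPR104 passed the filter through MO204 alone, and CPR100 and CPR102 through MO204 and DMMMSU119-4, with no LAT51 library at its level. The calls of CPR100 and CPR104 and the difference of CPR102 are thus not independent of the filter. CPR102, with 7 reads against 164, had a log2FC of -4.53 (SE 1.25) and did not pass (edgeR adjusted p = 0.1253), though DESeq2 called it (adjusted p = 0.0389), and so did edgeR without any 1 of the DMMMSU119 libraries. The CPR100 call held in 9 of 18 alternatives and that of CPR104 in 6 of 18. Without any single LAT51 or MO204 library neither gene was called, with log2FC between -4.48 and -3.92 for CPR100.

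These were the only members called in LAT51 vs. MO204, 2 of 20 (10%), where 3.07% of all 7610 genes tested were called. None was higher in LAT51, against 1.51% of all genes, and both were lower, against 1.56%. Both genes passed the filter with no LAT51 library at its level, so these counts are not independent of it. The libraries of the strains did not overlap for 5 members (25%), among them CPR100, CPR102, CPR104 and CPR127, against 19.5% of all genes. All 5 are RR-2 genes and were lower in LAT51. CPR100, CPR102, CPR104 and CPR127 needed the MO204 libraries to pass the filter, which favoured that direction for them. No RR-1 gene was called, and the median log2FC over the 12 RR-1 genes was 0.42, against -0.01 over all genes.

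CPR127, another RR-2 gene, did not separate the strains by the test. It was at 0.499, 1.49 and 0.175 CPM in LAT51, at 1.495, 1.63 and 1.86 CPM in MO204 and at 1.401, 0.246 and 0.184 CPM in DMMMSU119. Its MO204 libraries were above its LAT51 and DMMMSU119 libraries by small margins (LAT51 vs. MO204 log2FC -1.06, SE 0.730, edgeR adjusted p = 0.686).

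The RR-2 genes from CPR105 to CPR81 form an unbroken stretch of 23 coding genes, all of them CPR genes. Within it 12 genes had under 10 reads, 6 of these with none, and only CPR104, CPR102, CPR100 and CPR90 were tested. The highest total of an untested gene in the stretch was 45 reads, against the 55395 of CPR90, and CPR92, CPR94 and CPR95 had none. The genes on either side of CPR90, CPR91 and CPR89, had 45 and 8 reads.

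A second stretch, from CPR46 to CPR36, holds 12 RR-1 genes and the cuticular gene CPG21 among 13 coding genes. Of the CPR genes in it, CPR46, CPR43, CPR42, CPR41 and CPR38 were tested, 1 had no read, and no untested gene had more than 30 reads.

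**Figure D3:**
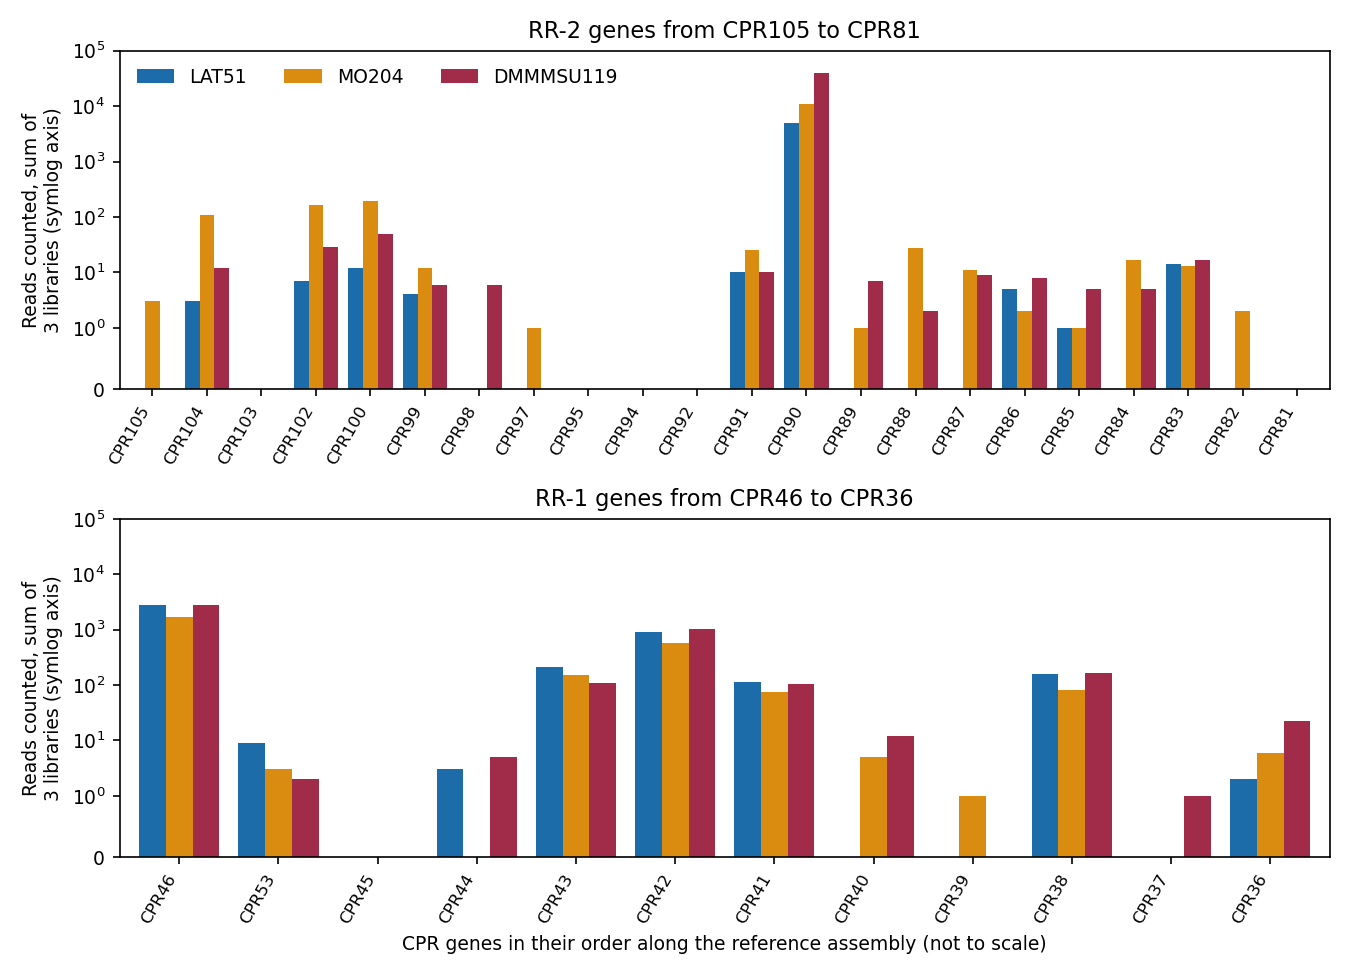
Reads counted over the 3 libraries of each strain (symlog axis, linear below 1) for neighbouring CPR genes in their order along the assembly, not to scale, with 22 of the 23 genes of the RR-2 stretch above and the RR-1 stretch below. CPR90 stands far above its neighbours, CPR104, CPR102 and CPR100 are highest in MO204, and expressed RR-1 genes lie beside genes with few reads.

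The RR-1 genes varied widely between larvae of the same strain. Their summed level over all 52 genes was 115, 250 and 98.8 CPM in LAT51-1, LAT51-2 and LAT51-4, and 129, 179 and 48.2 CPM in MO204-1, MO204-3 and MO204-4. It was 1377, 167 and 109 CPM in DMMMSU119-0, DMMMSU119-2 and DMMMSU119-4. Apart from DMMMSU119-0, the strains overlapped.

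DMMMSU119-0 was the highest DMMMSU119 library for all 12 RR-1 genes tested and the highest of all 9 libraries for 11 of them and for CPR148. LAT51-2 led the LAT51 libraries for 11 of the 12 RR-1 genes. Among the MO204 libraries, MO204-3 led for 7 (CPR2, CPR3, CPR4, CPR5, CPR28, CPR38 and CPR41) and MO204-1 for the other 5. RR-2 genes were ordered differently, with DMMMSU119-4 the highest DMMMSU119 library for 5 of 7.

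Genes listed as larval cuticle proteins are among these. CPR2 (LCP17), whose loss is known to alter larval body shape in the stony mutant, was at 3.79, 3.94 and 1.05 CPM in LAT51, at 0.783, 12.2 and 0.547 CPM in MO204 and at 75.1, 4.93 and 0.553 CPM in DMMMSU119. CPR4 (LCP18) was at 18.9, 20.5 and 9.46 CPM in LAT51, at 10.5, 31.7 and 5.36 CPM in MO204 and at 187.5, 15.5 and 12.7 CPM in DMMMSU119. CPR38 (LCP22) was at 5.49, 6.07 and 2.102 CPM in LAT51, at 0.142, 12.5 and 0.328 CPM in MO204 and at 46.0, 0.739 and 0.184 CPM in DMMMSU119. MO204-3 and DMMMSU119-0 were high for each of these genes, and edgeR called none of them in a strain contrast, while DESeq2 called CPR2 in LAT51 vs. DMMMSU119 (log2FC -3.21, adjusted p = 0.0716). For CPR4 and CPR38 DESeq2 gave no adjusted p in the strain contrasts.

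CPR41 (Lcp30), another larval cuticle protein gene, was at 3.89, 4.45 and 0.876 CPM in LAT51, at 0.427, 10.2 and 0.547 CPM in MO204 and at 26.9, 0.985 and 0.922 CPM in DMMMSU119. CPR3 was at 2.197, 2.52 and 1.58 CPM, at 0.142, 4.39 and 0.109 CPM and at 51.8, 3.20 and 0.737 CPM in the same order. CPR5 was at 4.99, 6.003 and 4.73 CPM, at 1.71, 9.11 and 0.219 CPM and at 26.1, 6.41 and 2.76 CPM. All 3 had MO204-3 and DMMMSU119-0 as the highest library of their strain, and edgeR called none in a strain contrast. DESeq2 called CPR3 lower in LAT51 (adjusted p = 0.0842) and in MO204 (adjusted p = 0.0461) than in DMMMSU119. For CPR41 DESeq2 gave no adjusted p in the strain contrasts.

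CPR28 had the largest fitted difference among the RR-1 genes. It was at 0.899, 0.775 and 0.350 CPM in LAT51, at 0.0712, 1.301 and 0 CPM in MO204 and at 45.4, 4.68 and 0.737 CPM in DMMMSU119. It was lower in LAT51 than in DMMMSU119 (log2FC -4.54, SE 1.43, edgeR adjusted p = 0.0427) and lower in MO204 than in DMMMSU119 (log2FC -5.46, SE 1.56, edgeR adjusted p = 0.0359). The libraries overlapped in both contrasts, and DMMMSU119-0 set the size of the difference, since without it the log2FC was -1.88 and -2.72 and neither was called. The first call was also lost without any 1 LAT51 library (log2FC -4.73 to -4.30), and the second without MO204-1 (log2FC -4.78).

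CPR42 and CPR34 were lower in MO204 than in DMMMSU119. CPR42 was at 17.4, 42.0 and 15.9 CPM in LAT51, at 26.4, 19.4 and 9.52 CPM in MO204 and at 205, 42.1 and 20.8 CPM in DMMMSU119 (log2FC of MO204 against DMMMSU119 -2.27, SE 0.802, edgeR adjusted p = 0.0700). CPR34 was at 7.29, 14.3 and 4.55 CPM in LAT51, at 4.56, 2.44 and 2.08 CPM in MO204 and at 18.2, 3.70 and 6.82 CPM in DMMMSU119 (log2FC -1.63, SE 0.642, edgeR adjusted p = 0.0948). The groups overlapped for both genes, and without DMMMSU119-0 the log2FC was -0.74 for CPR42 and -0.76 for CPR34 and neither was called. Both calls were also lost without any 1 MO204 library, and that of CPR34 without LAT51-1, LAT51-2 or DMMMSU119-4, with log2FC no nearer to 0 than -1.38. The CPR42 call held in 8 of 18 alternatives and that of CPR34 in 5 of 18, and with library size alone the log2FC was -0.93 and -0.28. CPR42 overlaps a non-coding gene in the gene table.

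CPR46 (Wcp11, a wing cuticle protein) was at 41.3, 135 and 49.4 CPM in LAT51, at 72.6, 67.3 and 25.1 CPM in MO204 and at 626, 73.7 and 51.98 CPM in DMMMSU119. CPR43 was at 5.09, 8.71 and 4.20 CPM, at 7.33, 4.23 and 2.30 CPM and at 24.7, 2.71 and 2.03 CPM in the same order. Both had DMMMSU119-0 far above the other 8 libraries, which overlapped, and edgeR called neither. DESeq2 called CPR46 lower in MO204 than in DMMMSU119 (log2FC -2.22, adjusted p = 0.0447). CPR148, the RR-3 gene tested, was at 1.298, 1.16 and 0.350 CPM in LAT51, at 0.427, 1.14 and 0 CPM in MO204 and at 4.76, 1.23 and 0.184 CPM in DMMMSU119, without a call by edgeR. CPR148 and CPR4 each overlap other entries of the gene table.

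CPR51 was the RR-1 gene with the reverse order of strains. It was at 1.90, 2.65 and 1.23 CPM in LAT51, at 2.06, 1.46 and 0.876 CPM in MO204 and at 0.841, 0.246 and 0.184 CPM in DMMMSU119. Every DMMMSU119 library was below every other library, on only 5 reads. CPR51 passed the filter through LAT51, MO204-1 and MO204-3, with no DMMMSU119 library at its level. Its calls are thus not independent of the filter. It was higher in LAT51 than in DMMMSU119 (log2FC 2.27, SE 0.680, edgeR adjusted p = 0.0354) and in MO204 than in DMMMSU119 (log2FC 1.87, SE 0.690, edgeR adjusted p = 0.0794). The first call held in 15 of 18 alternatives, and was lost without LAT51-2, DMMMSU119-2 or DMMMSU119-4 (log2FC 1.87 to 2.03). The second held in 7 of 18, and was lost when any 1 of LAT51-1, LAT51-2, LAT51-4, MO204-1, MO204-3, DMMMSU119-2 and DMMMSU119-4 was left out (log2FC 1.47 to 1.89). CPR51 overlaps another gene, LOC101743118, in the gene table.

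In LAT51 vs. DMMMSU119, 5 of the 20 members were called (25%), against 38.0% of all genes. CPR122 and CPR51 were higher in LAT51 (10%, against 18.2% of all genes), and CPR90, CPR28 and CPR100 were lower (15%, against 19.8%). CPR51 reached the filter's level in no DMMMSU119 library, and CPR28 and CPR100 in no LAT51 library. These counts are thus not independent of the filter. CPR100 in this contrast had a log2FC of -3.07 (SE 0.983, edgeR adjusted p = 0.0448), which became -0.74 without DMMMSU119-4 and was then not called. That call was also lost without any 1 LAT51 library (log2FC -3.25 to -2.89). The groups did not overlap for 3 members, CPR122, CPR90 and CPR51, against 40.7% of all genes.

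In MO204 vs. DMMMSU119, 6 of the 20 were called (30%), against 33.0% of all genes. CPR122 and CPR51 were higher in MO204 (10%, against 16.3% of all genes), and CPR90, CPR42, CPR34 and CPR28 were lower (20%, against 16.7%). This balance turned round with library size alone, where 6 were higher (CPR122, CPR127, CPR104, CPR102, CPR100 and CPR51) and 1 was lower (CPR28), and with limma on the deposited log2 values, where 4 were higher and 1 was lower. The groups did not overlap for 5 members, CPR122, CPR127, CPR104, CPR90 and CPR51, against 41.7% of all genes. CPR51, CPR104 and CPR127 reached the filter's level in no DMMMSU119 library, so these counts are not independent of the filter. Both contrasts use the same DMMMSU119 libraries, so their calls are not independent of each other.

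By fitted log2FC, more members were lower than higher against DMMMSU119. DMMMSU119-0 was the highest of all 9 libraries for 12 of the 20. The log2FC was negative for 17 of 20 in LAT51 vs. DMMMSU119 (median -1.73, against 0.01 over all genes) and for 13 of 20 in MO204 vs. DMMMSU119 (median -1.67, against 0.03), and with scaling by library size alone, which moved the median of all genes to 1.39 and 1.43, it was negative for 12 in each. The RR-2 genes had a median of -2.78 in LAT51 vs. DMMMSU119 and 1.53 in MO204 vs. DMMMSU119. The -2.78 is the value of CPR104, fitted on 3 LAT51 reads and 12 DMMMSU119 reads, all 12 of them in DMMMSU119-4. Without DMMMSU119-4, 9 and 11 members were called in these contrasts, and without LAT51-2 and MO204-1, respectively, 2 and 3 were. Without DMMMSU119-0, 6 and 4 were called. For CPR4, CPR34, CPR38, CPR41, CPR43, CPR102 and CPR104 the median CPM was higher in LAT51 than in DMMMSU119, although the fitted log2FC was negative. The other members with a negative log2FC in that contrast had the lower median in LAT51. With limma on the deposited log2 values, the log2FC was negative for 14 and 13 of the 20, with medians of -0.54 and -1.23.

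**Figure D4:**
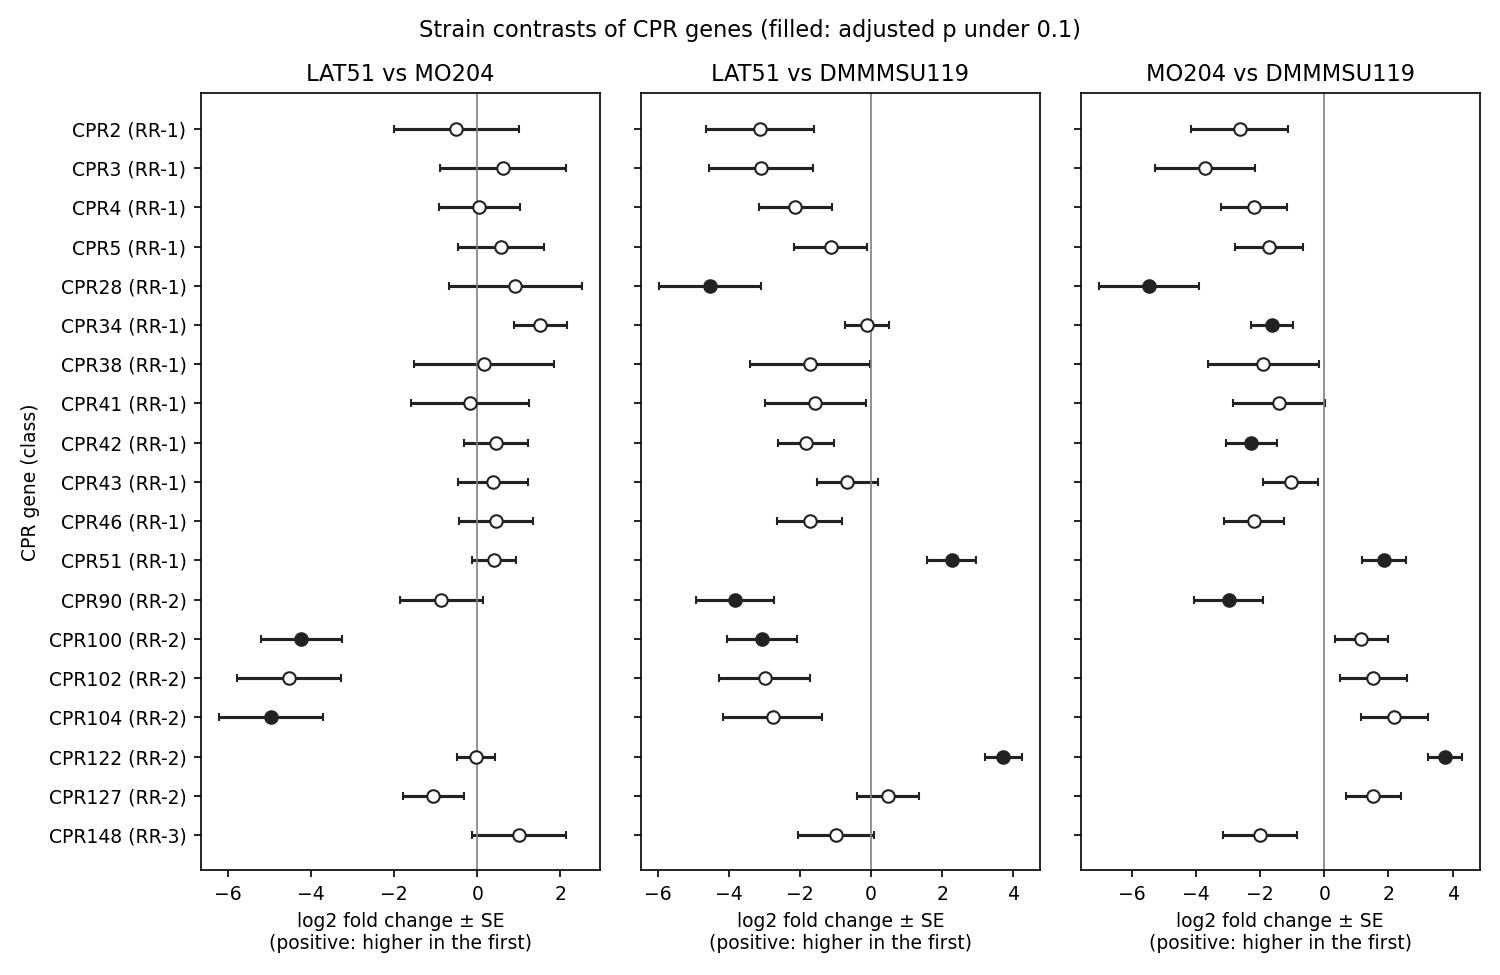
Log2 fold change ± SE of 19 of the 20 CPR genes tested in the 3 strain contrasts (positive values are higher in the first strain named), with filled points for edgeR adjusted p under 0.1. LAT51 vs. MO204 has its largest values in CPR100, CPR102 and CPR104, with CPR104 fitted on 3 LAT51 reads, and the contrasts with DMMMSU119 share CPR122, CPR51, CPR90 and CPR28.

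With location as the only factor, as in the design of the study, none of the 20 members was called in CAR vs. TCMO by edgeR, against 1.48% of all genes (0.710% higher and 0.775% lower in CAR). At an unadjusted p under 0.05 there were 4 members, CPR90, CPR100, CPR102 and CPR104 (20%), against 15.7% of all genes, and all 4 were lower in CAR. DESeq2 called 3, CPR90, CPR100 and CPR102. The log2FC was -3.01 for CPR90 (SE 1.35, edgeR adjusted p = 0.319), -3.77 for CPR100 (SE 1.01, edgeR adjusted p = 0.170) and -3.97 for CPR102 (SE 1.34, edgeR adjusted p = 0.205). For CPR104, with 3 reads in CAR and 122 in TCMO, the depth-scaled ratio was 29.95 in favour of TCMO (95% counting interval 10.01 to 147, edgeR adjusted p = 0.212). The interval covers counting error only, not the spread between larvae. CPR104 passed the filter through the TCMO strain MO204 alone, and CPR100 and CPR102 through MO204 and DMMMSU119-4, also from TCMO. No CAR library reached the filter's level for these genes, so their lower values in CAR are not independent of the filter. No member had CAR and TCMO libraries that did not overlap, against 8.67% of all genes. This model takes both TCMO strains as 1 group, and they differed from each other in CPR122 and CPR90 as given above.

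Transcripts of other tissues varied with the same libraries. Muscle genes (A1 and A2, actins, and TpnI, troponin I, the 3 of 16 muscle names found in the table) summed to 10460 CPM in DMMMSU119-0 and 547 CPM in MO204-3. In the other 7 libraries they summed to 0.968 to 23.8 CPM. A1 and TpnI were above 0 in every library, while A2 was at 0 in 6 of the 9.

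Those libraries were also the highest of their strain for CPR2, CPR3, CPR4, CPR5, CPR28, CPR38 and CPR41. LAT51-2 led the RR-1 genes in LAT51 with the lowest muscle sum of all, 0.968 CPM. Fat body genes (Lp-c6, Sp1, Sp2 and VG, 4 of 9 names found) summed to 39270, 11240 and 1010 CPM in the DMMMSU119 libraries and to 11.2 to 293.8 CPM in the others. VG did not follow the sum, at 6.79, 5.16 and 9.81 CPM in LAT51, 4.84, 7.805 and 0 CPM in MO204 and 0.5605, 2.46 and 0 CPM in DMMMSU119. Sp1 in DMMMSU119-4 was at 9.585 CPM, below LAT51-2 (11.94) and MO204-3 (152.9). Haemocyte genes (PPO1 and PPO2, 2 of 8) lay between 5.59 and 14.0 CPM, and tracheal genes (Btl and trh, 2 of 3) between 0.246 and 0.813 CPM, with trh at 0 in 5 libraries. The part of these tissues in the CPR levels was not tested.

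**Figure D5:**
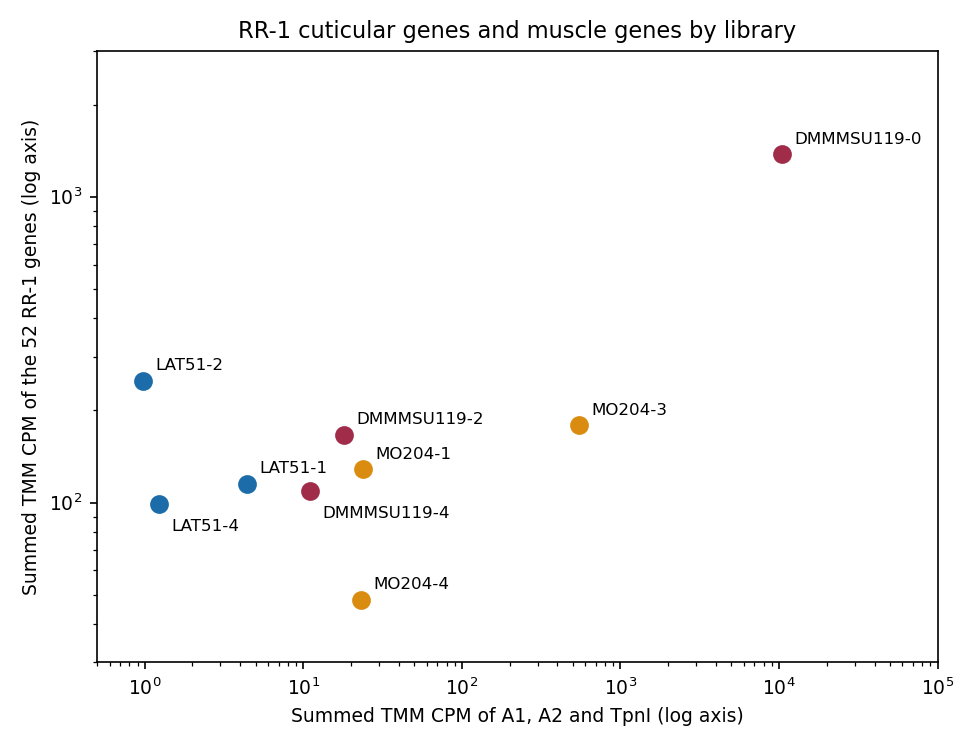
Summed TMM CPM of the 52 RR-1 genes against that of the muscle genes A1, A2 and TpnI in each of the 9 libraries (both axes logarithmic, coloured by strain). DMMMSU119-0 is highest on both axes, MO204-3 has the second highest muscle level with 179 CPM of RR-1 genes, and LAT51-2 has the lowest muscle level with 250 CPM.

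Without DMMMSU119-0 and MO204-3, a check chosen after the values were seen, 2 members were called in LAT51 vs. MO204 (CPR100 and CPR38), 7 in LAT51 vs. DMMMSU119, 5 in MO204 vs. DMMMSU119 and 1 in CAR vs. TCMO (CPR38, higher in CAR). Against DMMMSU119, CPR122 and CPR51 were then still called in both contrasts, CPR90 and CPR100 in that with LAT51, and CPR28 in that with MO204. The calls of CPR28 in LAT51 vs. DMMMSU119 (log2FC -1.88) and of CPR90 (-3.03), CPR42 (-0.78) and CPR34 (-0.64) in MO204 vs. DMMMSU119 were lost. New calls were CPR38, CPR56 and CPR102 in the first contrast and CPR3 and CPR56 in the second.

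The other members did not reach the filter's minimum level in enough libraries to be tested. The 3 of them with the highest count in a single library were CPR23, CPR32 and CPR56, all RR-1 genes. CPR23 had 62, 17 and 1 reads in DMMMSU119-0, DMMMSU119-2 and DMMMSU119-4, at most 15 in a LAT51 library and at most 6 in a MO204 library. CPR32 had 43 reads in DMMMSU119-0 and at most 10 in any other library. CPR56 had 22, 4 and 26 reads in the DMMMSU119 libraries, at most 6 in LAT51 and at most 3 in MO204. DESeq2, with its own filter, called CPR23 and CPR56 lower in both LAT51 and MO204 than in DMMMSU119.

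Other genes of the cuticle were looked up by name. Of 31 names for chitin synthesis and turnover, only FDL and Idgf were found, and FDL had no read. Idgf, a chitinase-like growth factor, was at 2.80 to 12.5 CPM in LAT51 and 47.2 to 376 CPM in DMMMSU119, and was lower in LAT51 (log2FC -4.73, edgeR adjusted p = 0.0162). Of 28 names for tanning and pigment, 8 were found and 3 tested. Aanat, which acetylates dopamine on the route to colourless cuticle, was at 0 to 3.85 CPM in LAT51, 1.86 to 9.76 CPM in MO204 and 25.4 to 151 CPM in DMMMSU119, and was lower than in DMMMSU119 in LAT51 (log2FC -5.74, edgeR adjusted p = 0.0101) and in MO204 (log2FC -3.65, edgeR adjusted p = 0.0357). The yellow family gene yellow-f was lower in LAT51 than in DMMMSU119 as well (log2FC -3.28, edgeR adjusted p = 0.0152), and edgeR called no gene of this list in LAT51 vs. MO204 or CAR vs. TCMO. DESeq2 called yellow-f lower in LAT51 than in MO204 (adjusted p = 0.0905), and in CAR vs. TCMO it called yellow-f (adjusted p = 0.00558), Aanat (adjusted p = 0.00929) and Idgf (adjusted p = 0.00348) lower in CAR.

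A list of transcription factors was represented by 14 of 41 names, 10 of them tested. It covers the ecdysone and juvenile hormone pathways, which time cuticle gene expression across moults, and also silk gland factors. Hr3, an ecdysone-induced nuclear receptor, was the only one called in LAT51 vs. MO204, and was at 7.36 to 16.7 CPM in LAT51, 1.31 to 3.42 CPM in MO204 and 0.922 to 1.96 CPM in DMMMSU119. It was higher in LAT51 than in MO204 (log2FC 2.59, edgeR adjusted p = 0.0381), than in DMMMSU119 (log2FC 3.26, edgeR adjusted p = 0.00466) and in CAR vs. TCMO (log2FC 2.85, edgeR adjusted p = 0.0231). In LAT51 vs. DMMMSU119, 3 of the 10 were higher and 6 lower, against 18.2% and 19.8% of all genes. In MO204 vs. DMMMSU119, 2 were higher and 6 lower, against 16.3% and 16.7% of all genes. Some of the silk gland factors were among the lower genes in both contrasts. Kr-h1, a juvenile hormone response gene, was higher in LAT51 than in DMMMSU119 (log2FC 3.62, edgeR adjusted p = 0.0134), and the ecdysone-induced E74 was lower (log2FC -2.58, edgeR adjusted p = 0.00664). With library size alone these 3 named genes kept their direction, while 4 of the 6 lower genes in LAT51 vs. DMMMSU119 changed sign.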

How the data were processed

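The authors aligned reads with HISAT2 and counted them with featureCounts, and deposited raw counts per gene as whole numbers. The submitters' processing notes name HISAT2 2.1.0 and featureCounts 1.4.6-p5, with fastp 0.20.0 and Trimmomatic 0.39 for read trimming. The deposited log2 values of the authors equal log2 of the count divided by a DESeq2 size factor, plus 1 (largest difference 4.97e-14), and were used with limma as an alternative. The kit kept strand, but the strand setting of the counting is not given in the sources used here, so overlapping and near-identical genes may share reads.

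Counts of the 9 libraries were filtered with filterByExpr, scaled with TMM and fitted with edgeR 4.0.16 (R 4.3.3) by the quasi-likelihood test. The strain contrasts came from 1 model with a mean per strain and 6 residual degrees of freedom, and CAR vs. TCMO from a model with location alone. P-values were adjusted by Benjamini-Hochberg over the 7610 genes tested, and genes under 0.1 were called. Alternatives used limma 3.58.1 and DESeq2 1.42.0, other scalings, filters and thresholds, each library left out in turn, and a replicate block. The rule named every member that passed the filter, the 3 untested members with the highest single count, and at most 3 genes of each other list. The members and lists were chosen with earlier results of these data known.

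The gene table of assembly ASM3026992v2 matched all 135 members by symbol. It is not the build of the counts, so no coordinates or sequences are given. The replicate libraries came from separate larvae, and no pair agreed within sampling noise (chi-square per degree of freedom 52.1 to 227 over 9 pairs). The tests were tested on simulated data before use. The strain ITA was not analysed here. Plots were drawn with matplotlib 3.10.9. A few members are counted in the totals but are not reported here by name or drawn in the plots.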

Additional observations from a re-analysis of the deposited data

Results flagged for a closer look

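In 12 of the CPR genes, the CPM of DMMMSU119-0 stood apart from the other 5 TCMO libraries, by a gap to the next library that exceeded the critical value of Dixon's test for 6 samples. For 6 values from 1 normal distribution, chance alone gives such a gap in about 1 in 20 groups. CPM was not transformed before the test, so that rate need not hold here. The 6 libraries are of 2 strains, and the 12 genes share the same library, so they do not count as separate events.

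Among the larval cuticle protein genes, DMMMSU119-0 was at 75.1 CPM for CPR2 (next 12.2), 187.5 for CPR4 (next 31.7), 46.0 for CPR38 (next 12.5) and 26.9 for CPR41 (next 10.2). It was at 51.8 CPM for CPR3 (next 4.39), 26.1 for CPR5 (next 9.11), 45.4 for CPR28 (next 4.68) and 18.2 for CPR34 (next 6.82). For CPR42 it was at 205 CPM (next 42.1), for CPR43 at 24.7 (next 7.33), for CPR46 at 626 (next 73.7) and for the RR-3 gene CPR148 at 4.76 (next 1.23). Muscle genes summed to 10460 CPM and fat body genes to 39270 CPM in this library, both the highest of all 9. Their part in these CPR levels was not tested.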

How the results depend on the processing

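The number of CPR genes called depended on the processing in every comparison, and CPR122 alone was called against DMMMSU119 in all 18 alternatives of both contrasts. In LAT51 vs. MO204, the 2 calls became 0 at an adjusted p under 0.05, without a filter, with a filter of 10 counts in total and with a replicate block, and 1 with library size alone or limma on the deposited log2 table. They ranged from 0 to 3 with 1 library left out. In LAT51 vs. DMMMSU119, the 5 calls became 11 with the DESeq2 Wald test, 8 without a filter and 3 with limma, and ranged from 2 (without LAT51-2) to 9 (without DMMMSU119-4). In MO204 vs. DMMMSU119, the 6 calls became 2 at an adjusted p under 0.05 and 2 with the replicate block, and ranged from 3 (without MO204-1) to 11 (without DMMMSU119-4). In CAR vs. TCMO, the count of 0 became 3 with DESeq2 and 1 without the 2 libraries richest in muscle genes, an alternative chosen after the data were seen, and ranged from 0 to 1 (CPR100, without DMMMSU119-0). The log2FC of CPR102 in LAT51 vs. DMMMSU119 lay between -3.54 and 4.03 with 1 library left out, against -3.00 with all, and turned positive (4.03, adjusted p = 0.184) without DMMMSU119-4, where the remaining DMMMSU119 libraries had no read and the value depends on the prior count. Scaling by library size alone turned the share of calls over all genes that were higher in the first group from 47.8% to 89.9% in LAT51 vs. DMMMSU119, from 49.3% to 93.2% in MO204 vs. DMMMSU119 and from 47.8% to 66.1% in CAR vs. TCMO. Among the CPR genes, it changed the calls in MO204 vs. DMMMSU119 from 2 higher and 4 lower to 6 higher and 1 lower. Under it the sign of 5 genes, CPR5, CPR34, CPR43 and CPR148 among them, changed in the first of these. The cause of these changes was not tested. Same-numbered libraries are different larvae, with correlations of their deviations from -0.15 to 0.23, so the numbers were not used as pairs. Counts of a few reads, as in CPR51, CPR102 and CPR104, limit what the depth can show.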
